A study of Notophthalmus viridescens with 18 samples.

Results

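Interleukin-6 (Il6) and colony-stimulating factor 1 (Csf1) are secreted proteins that cells use to signal to their neighbours, and their transcripts were followed through all 6 groups of a newt cell culture series. They are 2 of the 27395 entries in each deposited table. They were taken by entry name, comp1319999_c0_seq1 for Il6 and comp34820_c0_seq1 for Csf1, with earlier results of these data known. The names come from the study's supplementary gene list, which gives the closest protein found in another species. The values listed there beside Il6 and Csf1 singled out 1 entry each, matching in 18 of 18 libraries within a relative tolerance of 0.001.

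In mammals, interleukin-6 binds a receptor that acts through the JAK and STAT3 proteins, and it is among the best known factors released by senescent cells. Contracting and regenerating muscle also makes it, and muscle stem cells respond to it. Colony-stimulating factor 1 binds the receptor tyrosine kinase CSF1R and keeps macrophages and their precursors alive and dividing. Both are counted among the senescence-associated secretory phenotype, the mix of proteins that cells release once they have stopped dividing for good. These roles were established in mammals, and only transcripts, not released protein, were measured here.

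All cells came from A1, a myogenic line of limb mesenchyme from the newt Notophthalmus viridescens, with 3 libraries in each group. PRO cells, the proliferating control, grew in 10% fetal calf serum (FCS) with the solvent DMSO and were collected on day 12. SEN cells, made senescent, received 20 µM etoposide with 1 µM nutlin for 24 h and 1 µM nutlin alone for the next 11 days, and were also collected on day 12 in 10% FCS. Etoposide breaks DNA and nutlin stabilises p53. Myotubes, the multinucleate cells that A1 forms in low serum, were made over 5 days in 0.25% FCS and then kept for 3 days in 1 of 4 media, so that all were collected on day 8. Fresh medium held 0.25% FCS (MT_0.25%) or 10% FCS (MT_10%). Conditioned medium, also with 0.25% FCS, had spent 48 h on PRO cells in the group MT_0.25%_PRO_CM and on SEN cells in the group MT_0.25%_SEN_CM. Myotubes were size-selected between filters of 100 µm and, by the labels, 30 µm, a step that PRO and SEN cells did not undergo. The cell preparation, the RNA kit and the day of collection therefore cannot be told apart from the cell type wherever myotubes are set against PRO or SEN cells. All groups derive from this single line.

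Between 20609828 and 62991718 reads were assigned per library, with a median of 43238896. Levels are given as CPM, counts relative to a library's size after TMM scaling for RNA composition, and compare 1 gene across libraries. TPM values are as deposited: they divide by transcript length and sum to 1000000 in each library, without TMM scaling. They are used where the genes are compared with each other, and as a second scale between groups. In bulk RNA, fewer expressing cells and less transcript per cell cannot be told apart. The myotube markers followed the labels. The sum of 4 myotube transcripts (Myog, Ckma, Myh3.1 and Symhc1.1) lay between 437 and 908 CPM in the 12 myotube libraries and between 29.7 and 65.5 CPM in PRO and SEN libraries, in which most of it was Myog. The sum of Myf5, Ccnb1 and Cdk1a, which mark myoblasts and cycling cells, was 523 to 836 CPM in PRO, 93.2 to 98.0 CPM in SEN, 735 to 831 CPM in MT_10% and 147 to 269 CPM in the other myotubes. This sum did not separate MT_10% from PRO. Myf5 was its largest part, at a mean of 439 CPM in PRO and 642 CPM in MT_10%. The lamin gene Lmnb1, whose loss marks senescence, had a mean of 16.2 CPM in PRO and 1.70 CPM in SEN.

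Fewer reads fell on Il6 than on Csf1, the longer entry, except in MT_0.25%_PRO_CM library 1 (58 against 29). Il6 rested on 6 to 200 reads per library, with a median of 50. Csf1 rested on 29 to 4890 reads, with a median of 420. PRO libraries held only 29 Il6 reads between them, the fewest of any group, so counting error is largest there. No 2 libraries were copies of each other, but the labels do not say that replicates were separate cultures, so p-values measure the spread between libraries, which may be technical.

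The genes ordered the 6 groups differently. Il6 was highest in myotubes in fresh low serum, at 1.86 ± 0.61 CPM (SD, n = 3), and in myotubes in PRO-conditioned medium, at 1.80 ± 0.87 CPM. Then came MT_10% at 1.01 ± 0.38 CPM, SEN at 1.00 ± 0.059 CPM and MT_0.25%_SEN_CM at 0.998 ± 0.17 CPM, and PRO was lowest at 0.336 ± 0.12 CPM. On the CPM scale each neighbouring pair in that order overlapped, except the lowest: every library of the other 5 groups lay above all 3 PRO libraries, as for 12% of entries tested. In TPM the middle groups were less alike, with means of 2.03 in SEN, 1.47 in MT_10% and 1.05 in MT_0.25%_SEN_CM. SEN ran from 1.48 to 2.56 TPM and MT_0.25%_SEN_CM from 0.812 to 1.40 TPM. No share over all entries was counted in TPM.

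Csf1 had its peak in senescent cells. Its mean was 71.1 ± 20.4 CPM in SEN (SD, n = 3), 20.9 ± 7.5 CPM in PRO, 9.32 ± 1.1 CPM in MT_10% and 7.77 ± 4.6 CPM in MT_0.25%. In conditioned medium it was lower, at 2.71 ± 1.6 CPM with SEN medium and 2.30 ± 2.2 CPM with PRO medium. SEN stood clear above PRO, as for 31.6% of entries tested. In CPM, PRO stood clear above MT_10%, for which no share over all entries was counted. In TPM these groups overlapped, at 1.68 to 4.16 TPM in PRO and 2.57 to 3.08 TPM in MT_10%. The neighbouring pairs from MT_10% downwards overlapped in CPM. Csf1 varied between replicates more than most transcripts: its biological coefficient of variation was 0.446, against 0.198 on the trend for its level, and 97.4% of tested entries had a lower one. The value for Il6 was 0.275, against a trend of 0.259.

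**Figure D1:**
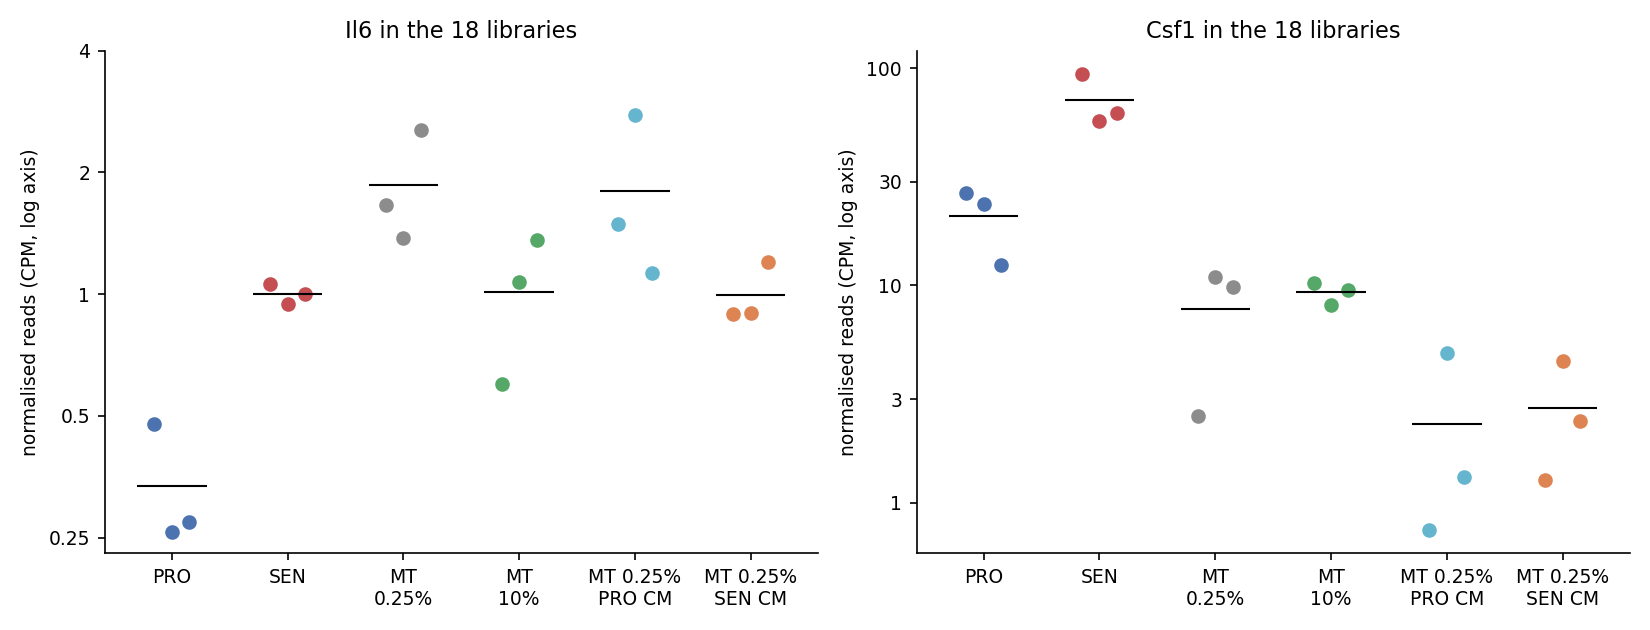
Normalised reads (CPM, log axis) of Il6 (left) and Csf1 (right) in the 18 libraries, 3 per group from left to right in replicate order, with each group's mean as a line. Il6 is lowest in PRO, with all 3 libraries under 0.5 CPM, and highest in MT_0.25% and MT_0.25%_PRO_CM, whereas Csf1 is highest in SEN, from 56.8 to 94.4 CPM.

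Senescent cells were then compared with proliferating cells. The study had already named both genes as raised in senescence from these same samples. Their direction here is therefore not independent evidence. Il6 stood at 0.478, 0.258 and 0.273 CPM in PRO libraries 1 to 3, and at 1.06, 0.944 and 1.00 CPM in the SEN libraries. Csf1 stood at 26.6, 23.7 and 12.4 CPM in PRO and at 94.4, 56.8 and 62.1 CPM in SEN. For both genes every SEN library exceeded every PRO library. Il6 was 2.92-fold higher in SEN, a log2 fold change of 1.55 ± 0.41 (SE) with a Benjamini-Hochberg adjusted p of 0.00387 in the quasi-likelihood test of edgeR. Csf1 was 3.40-fold higher, at 1.77 ± 0.52 with an adjusted p of 0.00738 by the same test. Both calls held under every alternative tried, with log2 fold changes of 1.22 to 2.48 for Il6 and 1.50 to 2.96 for Csf1.

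Both genes were thus called higher, but so was much of the transcriptome. Of the 23107 entries tested, 50.9% were called in SEN against PRO, 28.2% of all as higher, and 31.6% were higher without overlap. The median log2 fold change of all entries tested was 0.27. Il6 lay above 89.3% of the entries and Csf1 above 92.7%. The widest values came from TPM, where limma on log2(TPM + 0.1) gave 2.48 for Il6 and 2.96 for Csf1 beside a median of 1.18 over all entries tested. On log2(TPM + 1), where that median was 0.63, they were 1.22 and 2.61. On that scale 14317 entries were called higher and 801 lower, against 6526 and 5229 on the CPM scale.

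In myotubes the genes parted. In MT_0.25% libraries 1 to 3, Il6 stood at 1.67, 1.37 and 2.55 CPM, all above every PRO library, as for 40% of entries tested. It was 5.44-fold higher than in PRO, at a log2 fold change of 2.44 ± 0.40 (edgeR, Benjamini-Hochberg adjusted p = 1.95e-05). The call held under every alternative, from 1.63 on log2(TPM + 1) to 3.02 on log2(TPM + 0.1). The rise of Il6 on this contrast stood among 38% of entries called higher, of 69.7% called in all. Il6 lay above 88.7% of all entries tested, whose median was 0.20.

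Csf1 went the other way on the CPM scale. It stood at 2.50, 11.0 and 9.83 CPM in MT_0.25% libraries 1 to 3, all below every PRO library, as for 30.7% of entries tested. The log2 fold change was −1.42 ± 0.52, a 2.67-fold lower level with an adjusted p of 0.0195 (edgeR, Benjamini-Hochberg), and 31.7% of entries were called lower. This call was less secure than the one for Il6. It was lost without PRO replicate 1 (−1.21, adjusted p = 0.0688) and without MT_0.25% replicate 1 (−1.03, adjusted p = 0.0851).

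On the TPM scale almost no difference in Csf1 was left between these groups. Its means were 2.94 ± 1.2 TPM in PRO and 2.88 ± 1.9 TPM in MT_0.25% (SD, n = 3), and limma on log2(TPM + 1) gave −0.13 with an adjusted p of 0.772. The median of all entries tested moved to 0.76 on that scale, from 0.20 on CPM. Relative to that median Csf1 was lower on both scales. The length of its entry was the same in every library. TMM scaling, which TPM lacks, used factors of 0.617 to 0.710 in PRO and 1.09 to 1.51 in MT_0.25%.

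Myotubes and senescent cells have both left the cell cycle. In the main edgeR fit the genes were called in opposite directions between them, securely for Csf1 only. Csf1 was 9.07-fold lower in MT_0.25% than in SEN, at a log2 fold change of −3.18 ± 0.55 (edgeR, Benjamini-Hochberg adjusted p = 5.5e-05), with no overlap, which held for 30.4% of entries in that direction. The call held under every alternative, from −3.51 to −2.74, and only 1.33% of entries tested had a lower log2 fold change. In this contrast 52.3% of entries were called, 25.5% as higher and 26.9% as lower.

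Il6 was 1.86-fold higher in MT_0.25% than in SEN, at 0.90 ± 0.34 (edgeR, Benjamini-Hochberg adjusted p = 0.0312), and each MT_0.25% library exceeded each SEN library, as for 29.1% of entries. The call did not survive small changes. Leaving out SEN replicate 1, 2 or 3 gave adjusted p-values of 0.0622, 0.0686 and 0.0761, and leaving out MT_0.25% replicate 3 gave a log2 fold change of 0.59 with an adjusted p of 0.198. Correcting for the deposited effective length gave 0.24 (adjusted p = 0.636), and limma on log2(TPM + 1) gave 0.41 (adjusted p = 0.292). For Il6 that length is doubtful: the deposited length ran from 154 to 254 bases, shorter than the reading frame listed for it, while its reads and TPM imply an effective length of 686 to 1167 bases. For Csf1 the length was 4930 bases in every library and the implied and deposited effective lengths were equal.

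**Figure D2:**
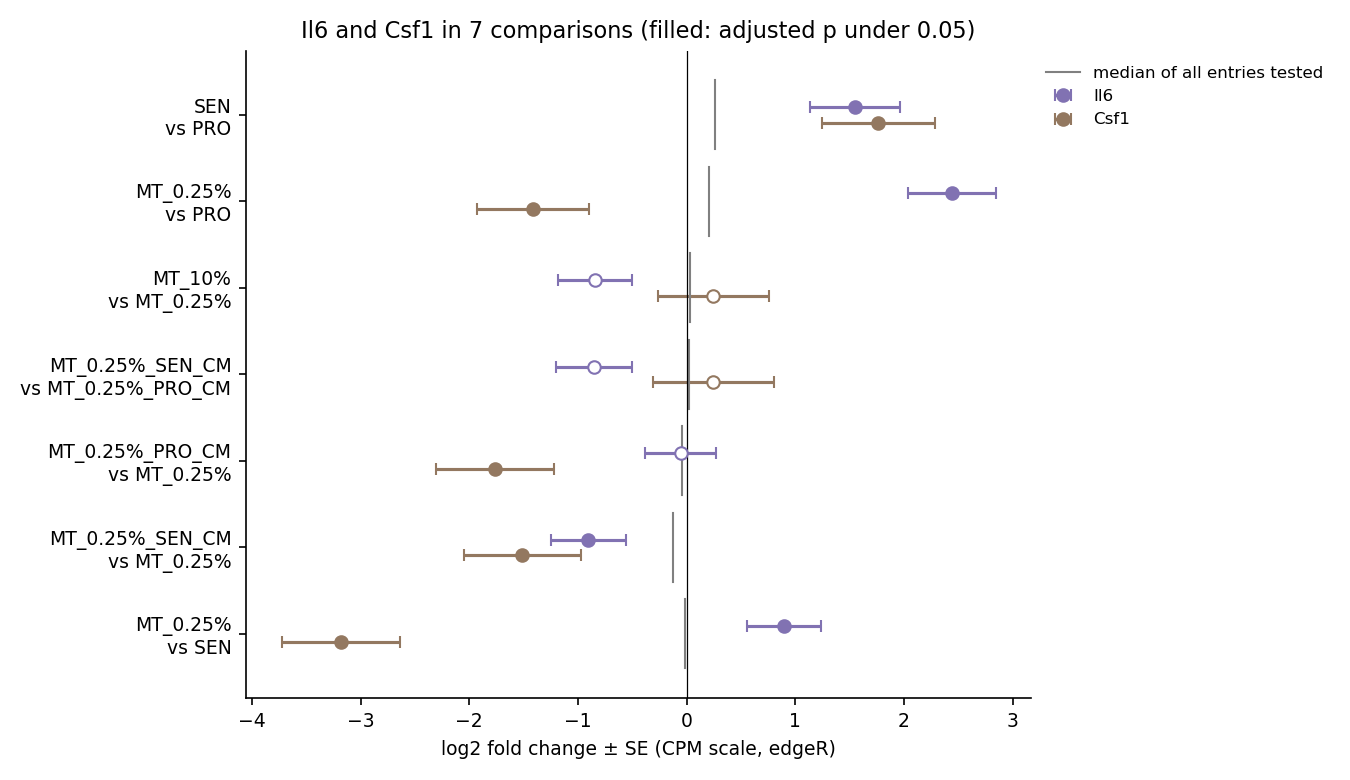
Log2 fold change (x axis, CPM scale, bars ± SE from edgeR) of Il6 and Csf1 in 7 comparisons between groups of 3 libraries, with grey lines at the median of all entries tested and filled points where the adjusted p is under 0.05. Both genes are higher in SEN than in PRO, at 1.55 and 1.77, whereas MT_0.25% against PRO places Il6 at 2.44 and Csf1 at −1.42.

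The balance between the genes can be read within each library, where scaling between libraries cancels. Csf1 exceeded Il6 by 8.62 to 13.7 times in the TPM of PRO libraries and by 9.39 to 13.0 times in SEN libraries. These ranges overlapped. In myotubes the ratio was 0.327 to 1.74 in MT_0.25%, 1.45 to 4.21 in MT_10%, 0.108 to 0.349 in MT_0.25%_PRO_CM and 0.264 to 0.921 in MT_0.25%_SEN_CM. All 12 myotube libraries thus lay below all 6 PRO and SEN libraries, and in 8 of them Il6 was above Csf1 in TPM. Which gene was the more abundant depends on the doubtful length of Il6. With reads divided by the deposited effective lengths, the ratio was 1.48 to 2.21 in PRO and SEN libraries and 0.0198 to 0.797 in myotubes, so that Il6 was above Csf1 in all 12. That ratio was computed after the lengths had been seen. With either length the myotube libraries lay below the PRO and SEN libraries. The share of other gene pairs whose ratio separates these libraries was not counted, so the separation cannot be called particular to this pair.

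**Figure D3:**
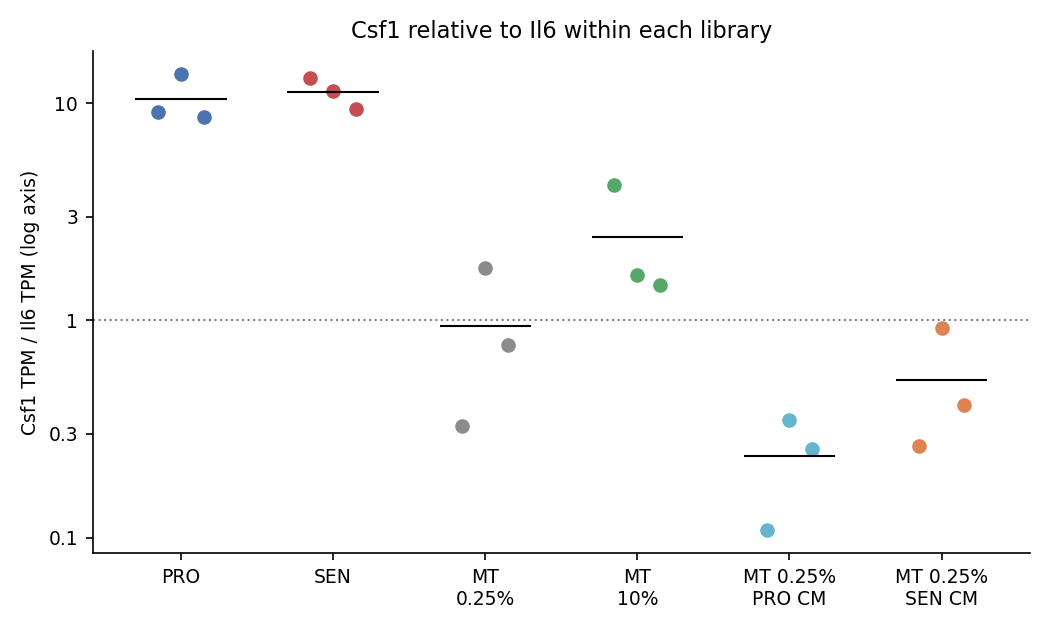
Csf1 TPM divided by Il6 TPM within each library (log axis), 3 libraries per group in replicate order with the group mean as a line and a dotted line at equal levels. PRO and SEN libraries lie between 8.62 and 13.7, and the 12 myotube libraries between 0.108 and 4.21.

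Serum was tested because 10% FCS drives newt myotubes back towards the cell cycle. Il6 was 0.601, 1.07 and 1.36 CPM in MT_10% libraries 1 to 3, so that all 3 lay under every MT_0.25% library, the closest at 1.36 against 1.37 CPM. The log2 fold change was −0.84 ± 0.34, with an adjusted p of 0.0522 (edgeR, Benjamini-Hochberg), just short of a call. In this comparison 40% of entries were called and 26.7% were lower without overlap. The result sat on the threshold: RLE scaling gave an adjusted p of 0.0454 and DESeq2 gave 0.0463. Leaving out MT_0.25% replicate 2 gave 0.0366 and leaving out MT_10% replicate 3 gave 0.0374, while the other 4 libraries left out in turn gave values that missed the threshold, up to 0.285.

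Csf1 did not differ detectably with serum. It stood at 10.3, 8.12 and 9.52 CPM in MT_10%, within the MT_0.25% range of 2.50 to 11.0 CPM. The log2 fold change was 0.25 ± 0.51, with an adjusted p of 0.731 (edgeR, Benjamini-Hochberg), and the SE leaves room for a sizeable change either way. Without MT_0.25% replicate 1, the library with the least Csf1 of its group, it was −0.16. MT_10% also carried more Timp1.1, an inhibitor of metalloproteinases abundant in mononucleate A1 cells, at a mean of 2755 CPM against 210 CPM in MT_0.25% and 22118 CPM in PRO. MT_10% was also the myotube group with the highest myoblast and cycling markers, given above. The part of mononucleate cells in these values was not tested.

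Medium from senescent cells was set against medium from proliferating cells. Il6 was 1.49, 2.78 and 1.13 CPM in MT_0.25%_PRO_CM libraries 1 to 3 and 0.895, 0.899 and 1.20 CPM in MT_0.25%_SEN_CM. The groups overlapped, since the highest SEN medium library exceeded the lowest PRO medium one. The log2 fold change was −0.85 ± 0.35, with an adjusted p of 0.133 (edgeR, Benjamini-Hochberg) and an unadjusted p of 0.0241, and it was not called under any alternative. In this comparison 8.34% of entries were called. The spread was wide: leaving out MT_0.25%_PRO_CM replicate 2 reduced the difference to −0.39, with an adjusted p of 0.595.

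Csf1 stood at 0.746, 4.86 and 1.31 CPM with PRO medium and at 1.28, 4.49 and 2.37 CPM with SEN medium. The groups overlapped almost fully. The log2 fold change was 0.25 ± 0.56, with an adjusted p of 0.818 (edgeR, Benjamini-Hochberg). It ranged from −0.32 without MT_0.25%_SEN_CM replicate 2 to 1.42 without MT_0.25%_PRO_CM replicate 2, so its sign was not fixed. Neither gene was called higher with SEN medium than with PRO medium, but only 3% of entries tested were. The SE for Csf1 leaves room for a sizeable change either way.

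Both conditioned media were also compared with fresh medium, and the MT_0.25% libraries serve as the reference in both and in the serum comparison. Csf1 was lower in both. With PRO medium its log2 fold change was −1.76 ± 0.54 and its adjusted p 0.0233 (edgeR, Benjamini-Hochberg). With SEN medium they were −1.51 ± 0.54 and 0.0325. Each group overlapped with MT_0.25% through the same library, MT_0.25% replicate 1 at 2.50 CPM. With PRO medium 24.5% of entries were called, 12.5% of all as lower, and with SEN medium 37.7% were called, 19.2% of all as lower. Only 2.16% and 5.32% of entries tested had lower log2 fold changes than Csf1.

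In the main fit the Csf1 calls depended on single libraries. With PRO medium the call was lost without MT_0.25% replicate 2 (−1.44, adjusted p = 0.106) or replicate 3 (−1.56, 0.0808), and without MT_0.25%_PRO_CM replicate 1 (−1.34, 0.112) or replicate 3 (−1.48, 0.113). Without MT_0.25%_PRO_CM replicate 2 the fall widened to −2.93 (0.00105). With SEN medium the call was lost without MT_0.25% replicate 2 (−1.18, 0.125) or replicate 3 (−1.31, 0.115), and without MT_0.25%_SEN_CM replicate 1 (−1.18, 0.145) or replicate 3 (−1.41, 0.0854). All these adjusted p-values are from edgeR. The direction was kept in each case. DESeq2 gave −1.49 with SEN medium and an adjusted p of 0.0609. With either medium, every library had less Csf1 than the MT_0.25% library of the same replicate number. The share of all entries for which this holds was not counted. With the replicate number as a block in a fit of only the groups compared, SEN medium gave −1.49 (edgeR adjusted p = 7.98e-06). PRO medium gave −1.92 (1.00e-08 by the same test), although its same-numbered libraries did not all deviate together (r = 0.330, 0.157 and −0.506). This fit was added after seeing the data, and the labels do not say that libraries were paired. Its p-values therefore do not settle the calls.

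Within the 3 low-serum myotube groups, Csf1 was lowest in replicate 1 and highest in replicate 2 each time. Timp1.1 stood at 103, 305 and 221 CPM in MT_0.25% libraries 1 to 3, at 90.9, 126 and 81.2 CPM with PRO medium and at 250, 368 and 372 CPM with SEN medium. The library with the most Csf1 thus had the most Timp1.1 in MT_0.25% and with PRO medium. With SEN medium it did not, but libraries 2 and 3 were nearly level in Timp1.1. Between groups the order differed, since MT_0.25%_SEN_CM held more Timp1.1 than MT_0.25% and less Csf1. Relative to PRO, the MT_0.25% mean was 0.948% for Timp1.1 and 37.2% for Csf1. Timp1.1 also differed between the mononucleate groups, with a SEN mean at 28.2% of that of PRO. The part of mononucleate cells in the Csf1 values was not tested.

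Il6 was called lower than in fresh medium with SEN medium and not with PRO medium, although the media themselves did not differ past the threshold, as given above. With PRO medium its log2 fold change was −0.055 ± 0.33 (edgeR, Benjamini-Hochberg adjusted p = 0.924). With SEN medium it was 1.87-fold lower than in fresh medium, at −0.90 ± 0.34 with an adjusted p of 0.0439 (edgeR) and no overlap of the groups, where 29.7% of entries were lower without overlap. This call was lost with the replicate number as a block over all groups (−0.90, edgeR adjusted p = 0.055). The call held with the block over these groups alone (−0.88, 0.00382), a fit added after seeing the data. It was also lost on correcting for the deposited effective length (−0.65, 0.196) and without MT_0.25% replicate 1 (−0.95, 0.0609), MT_0.25% replicate 3 (−0.60, 0.25), MT_0.25%_SEN_CM replicate 1 (−0.83, 0.132) or MT_0.25%_SEN_CM replicate 2 (−0.83, 0.128). On log2(TPM + 0.1) it was −1.43 (limma adjusted p = 0.0166). The median of all entries tested was −0.89 on that scale, against −0.13 on CPM. There 13503 entries were called lower and 933 higher, so the larger value is not a firmer result.

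The effect of serum and the effect of SEN medium over PRO medium were compared directly. Their difference was 0.0064 ± 0.47 on the log2 scale for Il6 and −0.0019 ± 0.68 for Csf1, with adjusted p-values of 0.996 and 1.00 (edgeR, Benjamini-Hochberg). For Il6 both effects were close to −0.85, and for Csf1 both were 0.25. In this test 4.22% of entries were called. The standard errors do not allow the effects to be called equal.

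The supplementary senescence list that names Il6 and Csf1 holds 5 other interleukins, which were all followed. In mammals, interleukin-7 supports lymphocyte survival, interleukin-8 is a chemokine for neutrophils, interleukin-10 restrains inflammation, interleukin-18 is activated by inflammasomes and interleukin-21 acts on lymphocytes. Because these samples were also the ones from which the list was drawn up, its counts are not independent evidence of a direction. Il21 was almost unread, with 0 to 6 reads per library, and did not pass the filter on low counts. Il7 rested on only 2 to 7 reads per library in PRO, so counting error is large in its comparisons with PRO.

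In SEN against PRO, 4 of the 4 interleukins tested were called higher (edgeR, Benjamini-Hochberg), beside 28.2% of all entries tested. Their log2 fold changes were 1.51 ± 0.44 for Il7, 1.16 ± 0.46 for Il10, 0.93 ± 0.20 for Il18 and 0.56 ± 0.22 for Il8. Their median was 1.04, beside 0.27 over all entries tested. Il18 was the most abundant, at 17.0 ± 2.3 CPM in PRO and 32.4 ± 2.6 CPM in SEN (SD, n = 3), without overlap. The Il8 and Il10 groups overlapped, and RLE scaling gave them adjusted p-values of 0.116 and 0.0688.

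In MT_0.25% against PRO 3 of the 4 interleukins were called, 2 higher and 1 lower, a share near the 69.7% of all entries called (38% higher and 31.7% lower). Il7 rose by 2.50 ± 0.42 and Il8 by 1.77 ± 0.22 on the log2 scale, like Il6. Il18 fell by 2.01 on the log2 scale (SE 0.21), like Csf1. Il10 was at −0.77 ± 0.50 and was not called (edgeR adjusted p = 0.17). The list's median was 0.50, beside 0.20 over all entries tested.

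Il18 was higher with serum and, on the CPM scale, with SEN medium. It was 4.22 ± 0.98 CPM in MT_0.25% and 9.10 ± 2.3 CPM in MT_10%, 2.14-fold higher with an adjusted p of 0.000363 (edgeR). In SEN medium it was 7.01 ± 0.83 CPM against 4.28 ± 0.16 CPM in PRO medium, a log2 fold change of 0.71 ± 0.20 with an adjusted p of 0.035. Neither pair of groups overlapped. On the CPM scale Il18 and Timp1.1 were both more abundant in PRO and SEN cells than in myotubes. In TPM the Il18 mean was 7.99 in PRO and 8.96 in MT_10%, so PRO was not the higher. Timp1.1 was also higher in both comparisons. The Timp1.1 mean was 330 CPM with SEN medium and 99.3 CPM with PRO medium, and the serum values are given above. The part of mononucleate cells in the Il18 values was not tested. Entries called higher made up 20% with serum and 3% with SEN medium, and entries higher without overlap 28.2% and 14.3%. Of the other 3 tested, Il8 fell with serum by 0.66 on the log2 scale (adjusted p = 0.0144), and Il7 and Il10 were not called in either comparison. For SEN medium against PRO medium limma on log2(TPM + 1) called none of the 4, and gave Il18 0.31 with an adjusted p of 0.422.

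**Figure D4:**
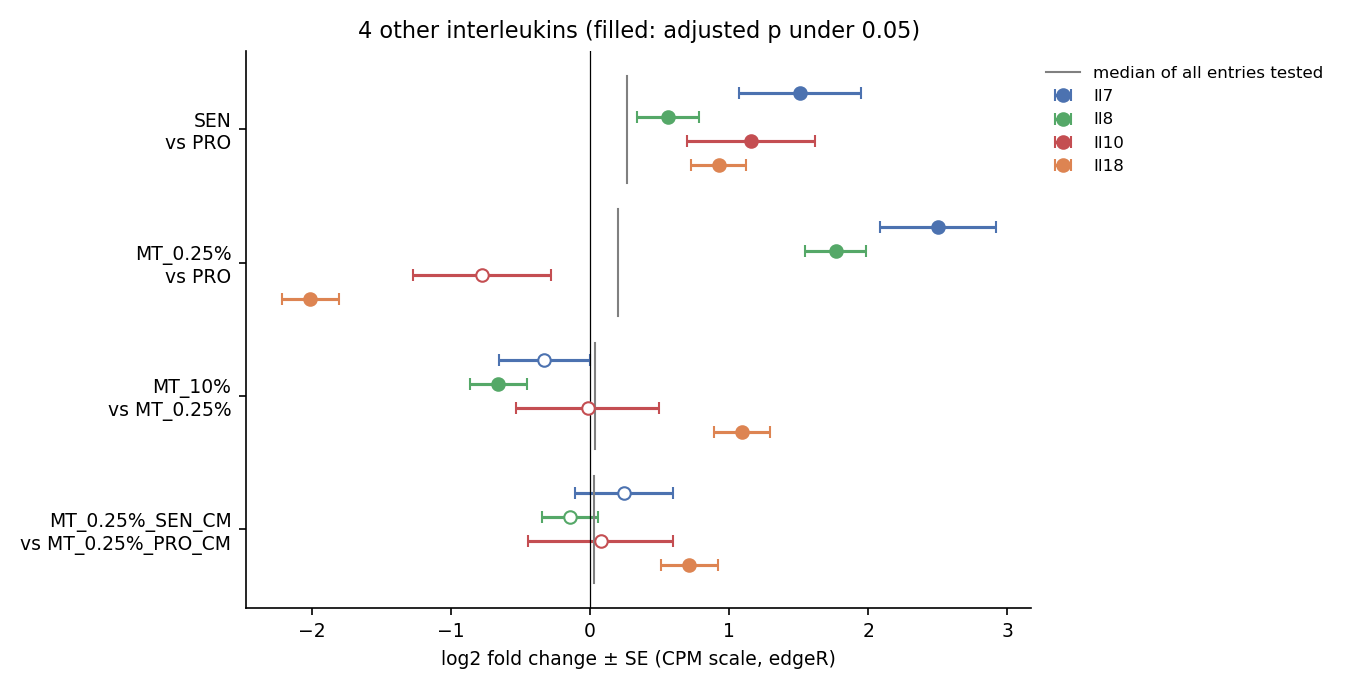
Log2 fold change (x axis, CPM scale, bars ± SE from edgeR) of 4 other interleukins in 4 comparisons between groups of 3 libraries, with grey lines at the median of all entries tested and filled points where the adjusted p is under 0.05. All 4 are called higher in SEN than in PRO, whereas in MT_0.25% against PRO Il7 lies at 2.50 and Il18 at −2.01.

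The entries most like each gene were ranked by Pearson correlation across the 18 libraries, on log2(CPM + 1). These libraries share groups, kits and scaling, so the values are a description. Nearest to Il6 were comp1265893_c0_seq1, comp1349519_c0_seq2 and comp338871_c0_seq1, with correlations of 0.95, 0.95 and 0.94, none of them paired with a name. Among 2030 tested entries with a name, the nearest had closest protein hits to atonal homolog 1 (0.94), aspartate beta-hydroxylase domain-containing protein 2 (0.93) and a melanosomal matrix protein (0.92). All 6 were rare, with group means under 5 CPM, highest in MT_0.25% or MT_0.25%_PRO_CM and lowest in PRO.

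Csf1 had closer neighbours. The entry comp4526257_c0_seq1 reached a correlation of 0.99, with mean levels of 22.1 CPM in PRO and 69.4 CPM in SEN, nearly those of Csf1 itself. The next were comp43216_c2_seq3 (0.98) and comp106909_c0_seq1 (0.97), and none of the 3 was paired with a name. Among entries with a name, an uncharacterized protein led (0.96), followed by tissue factor (0.94), which starts blood coagulation in mammals, and another uncharacterized protein (0.94). Tissue factor stood at 3.50 CPM in PRO and 17.6 CPM in SEN. Il6 and Csf1 were not alike, with a correlation of −0.32.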

How the data were processed

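RNA-seq of 18 libraries was analysed. The authors trimmed reads with Trim Galore and quantified them with Sailfish on Galaxy against a de novo N. viridescens transcriptome. No Sailfish version is given in the sources used here. The deposited tables hold estimated counts and TPM for each entry, as made by the authors, with a length and an effective length. Between 59.0% and 74.8% of the values in a library were not whole, so estimated counts were rounded.

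All 18 libraries were fitted in edgeR 4.0.16 (R 4.3.3) as 1 mean per group. Scaling was by TMM, and filterByExpr left 23107 entries. Quasi-likelihood tests were adjusted by Benjamini-Hochberg over all of them, at 0.05. Each SE is the log2 fold change divided by the root of its F statistic. Alternatives were RLE scaling, DESeq2 1.42.0, no filter, a replicate block, a fit of only the groups compared, an offset from effective length, limma 3.58.1 on log2(TPM + 1) and log2(TPM + 0.1), and each library left out. The block with only the groups compared was added after seeing the data. The fit was also run on simulated counts with the same spread for every entry. Csf1 varied more than most entries, so that run does not vouch for its tests.

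Entries got names from 2 supplementary tables where the values listed beside a name fitted 1 entry within 0.001. The tables gave the same name to 41 of 41 entries found in both. Entry IDs in the larger table did not go with its values (0 of 1966 and 0 of 1768 rows) and were not used. Text named Il6, Csf1, 5 interleukins, markers, and the 3 most alike entries, overall and among named ones. Members and lists were chosen with earlier results of these data known. The same replicate numbers deviated together (r over 0.1 in all 3 pairs) for SEN with PRO (0.376, 0.370 and 0.431). They also did for MT_0.25%_SEN_CM with MT_0.25% (0.563, 0.130 and 0.477). They deviated in opposite directions for MT_0.25% with PRO (−0.391, −0.12 and −0.244) and with SEN (−0.357, −0.240 and −0.275). In the other comparisons the signs were mixed. The positive values are only a hint of pairing from the data, since labels give only the number. Over all groups the median r was −0.037 for same numbers and 0.013 for different numbers. The main fit treated no libraries as paired. No sequence is shown, because no sequence file was used here.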

Additional observations from a re-analysis of the deposited data

How the results depend on the processing

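For Il6 and Csf1, 16 results were recomputed under 252 alternatives, and 185 of these kept both direction and side of the threshold. Another 27 lost a call, 6 gained one and 34 changed sign, all of the last in comparisons that were not called. Il6 in SEN against PRO and in MT_0.25% against PRO, and Csf1 in SEN against PRO and in MT_0.25% against SEN, kept their calls under every alternative run. The causes of the changes below were not tested. Il6 had as few as 6 reads in a library, and the groups in which its calls were lost had 28 to 200.

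Il6 in MT_10% against MT_0.25%, not called at −0.84, was called with RLE scaling (−0.88), with DESeq2 (−0.88) and with only the groups compared (−0.94), or those with the replicate block (−0.93). Il6 in SEN medium against fresh medium lost its call with the replicate block over all groups (−0.90) and with the effective length offset (−0.65). Il6 in MT_0.25% against SEN lost its call with that offset (0.24) and on log2(TPM + 1) (0.41) and log2(TPM + 0.1) (0.54). For Csf1, calls were lost in MT_0.25% against PRO on log2(TPM + 1) (−0.13) and log2(TPM + 0.1) (−0.28), in PRO medium against fresh medium with only the groups compared (−1.76) and in SEN medium against fresh medium with DESeq2 (−1.49).

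Signs changed around 0. Il6 in PRO medium against fresh medium became 0.044 with the length offset, and Csf1 in SEN medium against PRO medium became −0.029 on log2(TPM + 1). The serum effect minus the SEN medium effect for Il6 became −0.026 with RLE scaling, −0.029 with DESeq2, −0.082 with the length offset, −0.0071 with the replicate block and only the groups compared, −0.11 on log2(TPM + 1) and −0.13 on log2(TPM + 0.1). For Csf1 it became 0.040 with the replicate block, 0.21 with the block and only the groups compared, 0.077 with the length offset, 0.0086 with DESeq2, 0.18 on log2(TPM + 1) and 0.26 on log2(TPM + 0.1).

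With 1 library left out, Il6 ranged from −1.08 to −0.54 in MT_10% against MT_0.25%, from −0.51 to 0.25 in PRO medium against fresh medium, from −1.08 to −0.60 in SEN medium against fresh medium, from 0.59 to 1.08 in MT_0.25% against SEN and from −0.45 to 0.31 for the serum effect minus the SEN medium effect. Csf1 ranged from −1.75 to −1.03 in MT_0.25% against PRO, from −0.16 to 0.58 in MT_10% against MT_0.25%, from −0.32 to 1.42 in SEN medium against PRO medium, from −2.93 to −1.34 in PRO medium against fresh medium, from −2.08 to −1.18 in SEN medium against fresh medium and from −1.17 to 0.58 for the difference of effects. The arm left with 2 libraries shares the spread estimated over all groups.

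Of the 4 other interleukins tested, 2 were called in SEN against PRO with RLE scaling and 2 with DESeq2, where the main count was 4. On log2(TPM + 1), 1 was called in MT_10% against MT_0.25% instead of 2, and 0 in SEN medium against PRO medium instead of 1. On that scale Il10 in MT_0.25% against PRO became 0.051, and Il7 and Il10 in SEN medium against PRO medium became −0.052 and −0.018. Over all entries, SEN medium against fresh medium called 8720 and on log2(TPM + 1) 14697. The difference of effects called 974, and 1759 with DESeq2, 1502 with only the groups compared and 1904 with the block added. With 1 library left out, the lowest counts were 619 for SEN medium against PRO medium (main 1927), 3159 for PRO medium against fresh medium (main 5663), 4678 for SEN medium against fresh medium and 468 for the difference of effects. Over all 45 pairs of same-numbered libraries the median correlation was −0.037, while 11 of 18 libraries correlated best with their own number, a hint from the data and not from the design. The replicate block changed no other call than those given.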
